A study of Mus musculus with 10 samples.

Results

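The regions described here are 1771 H3K27me3 peaks that both ex14D libraries shared and that no shared control peak overlapped. They were taken from the peaks called in ex14D replicate 1 on chromosomes 1 to 19. A peak was a member if it overlapped a peak of ex14D replicate 2 by at least 1 bp and no control replicate 1 peak that itself overlapped a control replicate 2 peak. Of 14131 autosomal peaks in ex14D replicate 1, 8193 overlapped a replicate 2 peak, and the members made up 21.6% of these. The remaining 6422 overlapped a shared control peak and are called common peaks below. The same rule with the genotypes exchanged gave 2962 control-only peaks. That order of the 2 counts turned when only the stronger peaks were used, with 3340 ex14D-only and 1817 control-only peaks at a −log10 q of at least 3. The members were thus chosen by the H3K27me3 peak calls of these 4 libraries, and their widths, enrichments and H3K27me3 reads are given below as descriptions without a test.

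The cells were E14 mouse ES cells of strain 12910la. Control cells were wild-type, and the ex14D cells, labelled as an Ezh2 knockout of exon 14, carried a CRISPR-Cas9 in/del in that exon, so that the functional EZH2 left is the isoform whose transcript skips it. Each genotype had 2 H3K27me3 libraries, 2 EZH2 libraries and 1 input library, and nothing in the labels says whether replicates came from separate cultures or colonies. Control H3K27me3 replicate 1 was the shallowest of the 4 H3K27me3 libraries, with 594289 reads on counted genes against 937207 in control replicate 2 and 1248018 to 1450937 in ex14D, and control replicate 2 had the most autosomal peaks, 19639, against 12100 in control replicate 1 and 14131 and 9233 in ex14D. As a check of the cell type, the promoters of Pou5f1, Nanog, Sox2, Zfp42 and Esrrb had no H3K27me3 peak in any library, while Gata6, Sox17, T, Pax6 and Neurog1, which ES cells keep silent, had one in all 4. Klf4, an ES cell factor, also had a peak in all 4, and Gata4 had one in 3. None of these 12 genes had a member over its promoter.

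H3K27me3 is the trimethyl mark that Polycomb repressive complex 2 (PRC2) places on lysine 27 of histone H3, and EZH2 is the subunit of PRC2 that carries the methyltransferase activity. In ES cells the mark is known to cover the CpG-rich promoters of developmental genes that are silent but can be activated later. Germline genes form another class of CpG-containing promoters that ES cells keep silent, and DNA methylation and a variant Polycomb complex are known to act on them.

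To show what these regions are made of, 200-base windows are printed for 2 of the 4 members with the highest fold enrichment (the lower of the 2 ex14D values) that had no peak in either control library and no EZH2 domain. In each member the window with the most CG dinucleotides outside exons was taken from GRCm38, and CG is in capitals. No member without a control peak had an EZH2 domain in all 4 EZH2 libraries, so that no sequence of that kind could be shown.
Intron of Pdzrn3, chr6:101154916-101155115, forward strand, 2 CG: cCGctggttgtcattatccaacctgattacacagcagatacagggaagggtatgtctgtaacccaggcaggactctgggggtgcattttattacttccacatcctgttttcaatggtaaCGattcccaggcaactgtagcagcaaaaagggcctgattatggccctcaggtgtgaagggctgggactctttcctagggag
Intron of Timp4, chr6:115251418-115251617, forward strand, 4 CG: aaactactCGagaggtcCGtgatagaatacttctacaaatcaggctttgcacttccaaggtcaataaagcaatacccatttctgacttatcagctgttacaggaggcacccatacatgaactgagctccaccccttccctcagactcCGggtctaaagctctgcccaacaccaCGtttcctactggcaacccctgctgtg
A second set was chosen after its values were seen. It gives the 200 bases before the transcription start of 3 meiosis or germline genes and of Gja1, all inside a member, in the direction of transcription.
Hormad1, chr3:95559477-95559676, forward strand, 16 CG: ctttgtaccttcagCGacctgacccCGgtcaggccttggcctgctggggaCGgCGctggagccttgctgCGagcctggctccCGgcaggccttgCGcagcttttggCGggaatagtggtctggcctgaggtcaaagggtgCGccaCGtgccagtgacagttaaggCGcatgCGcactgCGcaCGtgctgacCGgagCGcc
Syce1, chr7:140787855-140788054, reverse strand, 12 CG: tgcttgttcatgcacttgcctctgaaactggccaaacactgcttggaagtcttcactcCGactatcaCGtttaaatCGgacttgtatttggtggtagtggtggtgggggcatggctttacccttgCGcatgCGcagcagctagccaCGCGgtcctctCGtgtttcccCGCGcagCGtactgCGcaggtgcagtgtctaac
Piwil4, chr9:14740673-14740872, reverse strand, 10 CG: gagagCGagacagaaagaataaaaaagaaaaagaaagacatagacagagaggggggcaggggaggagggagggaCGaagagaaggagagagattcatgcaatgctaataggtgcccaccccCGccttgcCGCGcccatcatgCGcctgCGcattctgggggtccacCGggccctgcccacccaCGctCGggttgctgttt
Gja1, chr10:56377100-56377299, forward strand, 5 CG: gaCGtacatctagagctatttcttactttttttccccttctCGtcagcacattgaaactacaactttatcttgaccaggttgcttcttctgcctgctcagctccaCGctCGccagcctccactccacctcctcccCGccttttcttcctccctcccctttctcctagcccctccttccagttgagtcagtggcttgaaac
Over all 23235 counted autosomal genes, the same 200 bases held a median of 6 CG (quartiles 2 and 14), and over the 241 genes with a member at the promoter a median of 7 (quartiles 4 and 13). Hormad1, Syce1 and Piwil4 were above both medians and Gja1 below them, as was Spo11, whose window also lay inside its member and held 2. The windows in Pdzrn3 and Timp4, although the richest in CG of their members, held 2 and 4.

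Most members also overlapped a peak in 1 control library. Of 1771 members, 1368 (77.2%, exact 95% binomial interval 75.2% to 79.2%) overlapped a peak in control replicate 2 only, 44 (2.48%) a peak in control replicate 1 only and 32 (1.81%) separate peaks in both. No peak of either control library overlapped the remaining 327 (18.5%, 16.7% to 20.4%). Where control replicate 2 had a peak, it covered a median of 79.2% of the member, and it was wider than the member in 727 of 1400 cases. Control replicate 1 had no peak at 95.7% of the members. The control-only peaks divided differently, with 1794 of 2962 (60.6%) lacking a peak in either ex14D library and 1069 (36.1%) overlapping one in ex14D replicate 1 only. With control replicate 1 left out, so that any control replicate 2 peak removed a candidate, 373 peaks remained. With control replicate 2 left out, 1695 remained.

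**Figure D1:**
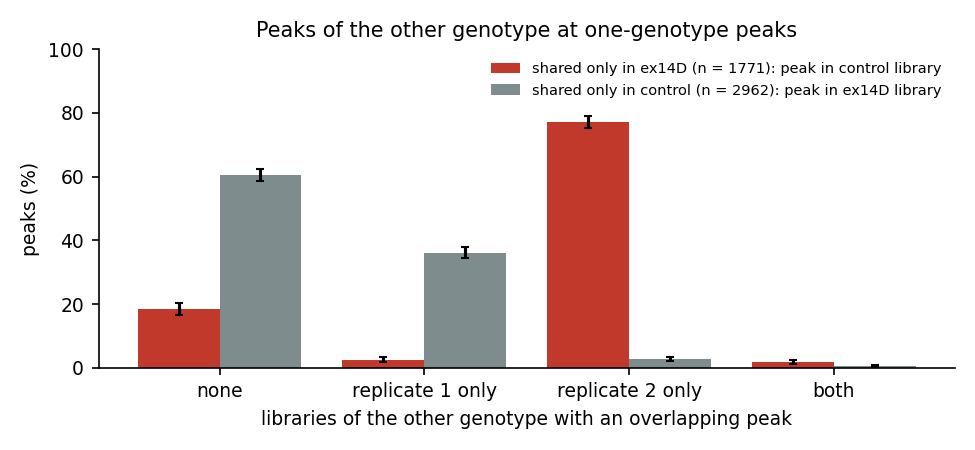
Share of peaks shared only in ex14D (red, n = 1771) and only in control (grey, n = 2962) by which libraries of the other genotype had an overlapping peak; bars are percent of peaks and error bars the exact 95% binomial interval of each share. Peaks in control replicate 2 only made up 77.2% of the ex14D-only peaks.

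The members were narrow. Their median width was 1744 bp (quartiles 1014 and 2751.5 bp, range 288 to 12393 bp), between 1082 bp for control-only peaks and 4076.5 bp for common peaks. Only 3 members reached 10 kb, against 667 common peaks (10.4%). The largest overlap of a member with a single ex14D replicate 2 peak had a median of 802 bp. All ex14D replicate 2 peaks together covered a median of 55.4% of the member. Members with no control peak were narrower, with a median of 1130 bp, than those with a peak in control replicate 2 only, with 1889 bp. At the edge of the rule, the member with the smallest replicate 2 overlap shared 1 bp (chr2:60132477-60133101), and the peak left out by the smallest overlap with a shared control peak shared 11 bp with it (chr16:55820626-55821393). In all, 40 members rested on an ex14D overlap under 100 bp, and 19 peaks were left out by a control overlap under 100 bp.

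The fold enrichment of the peak caller had a median of 4.46 over the members in ex14D replicate 1 and of 5.36 in ex14D replicate 2. For the 1400 members with a peak in control replicate 2 its median there was 3.13. Common peaks had a median of 4.87 and control-only peaks 3.20 in their own base library. Over all autosomal peaks the median was 3.31 and 3.06 in control replicates 1 and 2 and 4.79 and 5.54 in ex14D. The members thus lay near the usual fold of each library, and folds of different libraries cannot be set against each other as enrichment. This value said little about the reads under a peak. Across promoter windows lying inside a peak, Spearman's rho between the reads counted and the fold was 0.069 to 0.103 in the 4 libraries (2776 to 4089 windows), and between reads and peak width 0.514 to 0.579. Neighboring peaks of one library carried similar folds, with rho of 0.759 to 0.843. Folds agreed poorly between the ex14D libraries over the members (rho 0.285), and widths more closely (rho 0.435). These correlations are across peaks, which are not independent replicates.

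**Figure D2:**
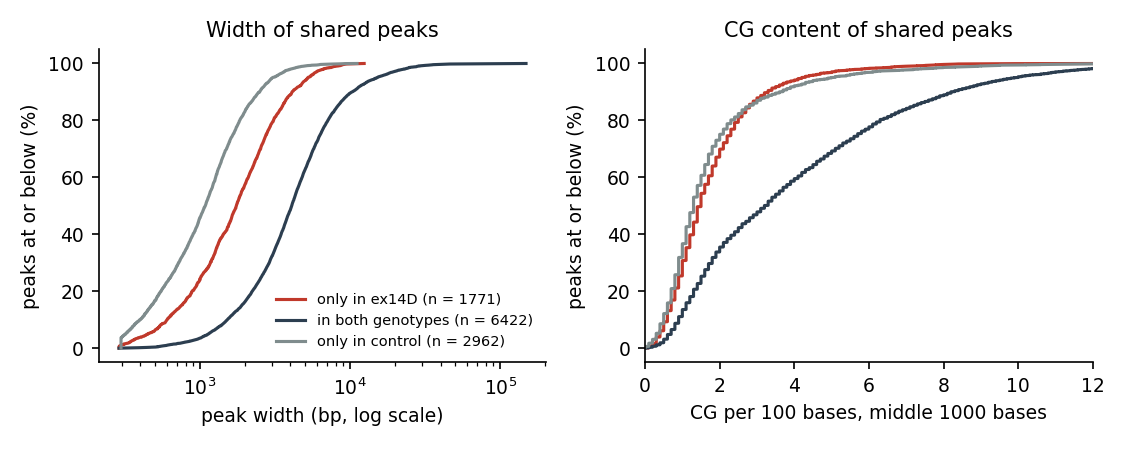
Cumulative share of peaks by width in bp on a log axis (left) and by CG per 100 bases in the middle 1000 bases (right), for ex14D-only (red), common (dark) and control-only peaks (grey). The ex14D-only curve lies between the control-only and the common curve for width (medians 1744, 1082 and 4076.5 bp) and beside the control-only curve for CG (medians 1.5, 1.3 and 3.2).

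By the fold alone, the highest member lay in an intron of Unc5b, a netrin receptor gene (chr10:60787989-60788944), with 41.8 in ex14D replicate 1, 30.3 in ex14D replicate 2 and 3.36 in control replicate 2. The next was between genes near Trh, which encodes thyrotropin-releasing hormone (chr6:92248595-92249584), with 41.0 and 4.27 in the ex14D libraries and 7.13 in control replicate 1. A pair of members lay beside each other upstream of Drd5, a dopamine receptor gene, the first of them in an intron of Otop1, with 39.9 (chr5:38301515-38302514) and 39.0 (chr5:38308232-38308725) in ex14D replicate 1, 6.88 and 12.8 in ex14D replicate 2 and 3.89 and 2.49 in control replicate 2. The other 4 of the 8 highest folds were 35.7 to 36.7. Their nearest gene starts, of Atg7, Acot10, Fbxo44 and Sec13, lay 108568, 443428, 1840 and 7797 bp away. The member whose nearest start was that of Acot10 had no control peak. As 41.0 and 4.27 near Trh show, the fold of a member could differ widely between the ex14D libraries, so that this order is that of 1 library.

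The members lay away from promoters more often than common peaks. A member covered part of a promoter, taken as the 1000 bp centered on the 5′ most start of a counted gene, in 227 cases (12.8%, interval 11.3% to 14.5%), an exon in 293 (16.5%), an intron in 430 (24.3%) and none of these in 821 (46.4%). Of common peaks 55.3% lay over a promoter and 17.2% between genes. Common peaks were wider (median 4076.5 against 1744 bp) and can reach a promoter more often for that reason, and these shares were not matched for width. The control-only peaks, at 12.5% and 44.1%, divided much as the members did. Evenly spaced 2000 bp tiles of the genome, 11977 in all, lay over a promoter in 2.60%. The median distance to the nearest start was 24102 bp for members, 144 bp for common peaks and 9648.5 bp for control-only peaks. Of the members 473 (26.7%) had a shared control peak within 10 kb, and the median distance to one was 43316 bp. Of these 473, 12.5% had no control peak, and of the 1298 farther away 20.6%. Members occurred on every autosome, from 5.48 per 10 Mb on chromosome 15 to 9.44 on chromosome 19.

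A few genes held several members. Of 817 gene bodies that held any, 104 held at least 2 and 6 at least 4. Zfp536, which encodes a zinc finger protein, held 6 in 456 kb of chromosome 7, and Frmd4a held 5 in 596 kb of chromosome 2. Auts2, whose protein is a partner of a variant Polycomb repressive complex 1, held 4, as did Dnah2, Lzts1 and Phactr1. These genes were picked for their number of members after the values were seen, and long genes can hold more peaks.

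The sequence under members was poorer in CG than that under common peaks. In the 1000 bases around the middle of each peak, the same length for all sets, members had a median of 1.5 CG per 100 bases (quartiles 0.90 and 2.3), common peaks 3.2 and control-only peaks 1.3. A window with at least 50% G or C and an observed to expected CG ratio of at least 0.6, the usual letters of a CpG island, was found in 64 members (3.61%, interval 2.79% to 4.59%) and in 30.4% of common peaks. The control-only peaks held one in 4.93% (interval 4.18% to 5.77%), so that the low share was not particular to the members. Members over promoters held one in 15.4% and common peaks over promoters in 42.5%, so that the lower share was also seen among promoter peaks. Members with no control peak held one in 5 of 327 cases (1.53%), those in introns in 2 of 430 (0.465%) and those between genes in 10 of 821 (1.22%). Over their whole width, members were 48.1% G or C in the median and common peaks 51.3%, against 41.6% in the genome tiles.

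EZH2 binding was read from libraries that the rule did not use. An EZH2 domain overlapped 97 members (5.48%) in control EZH2 replicate 1 and 260 (14.7%) in control replicate 2. In ex14D the numbers were 32 (1.81%) in replicate 1 and 16 (0.903%) in replicate 2. Both ex14D libraries were below both control libraries. The share averaged 10.1% ± 6.51 (SD, n = 2) in control and 1.36% ± 0.639 (n = 2) in ex14D, and an exact two-sided permutation test over libraries gave p = 0.333, the smallest p that 2 against 2 libraries allow. The number of domains called moved with this share, at 5001 and 6802 in the control and 3458 and 3335 in the ex14D libraries on these chromosomes, and its part in the result was not tested. The control-only peaks had a domain in 8.37% and 19.6% (control) and 1.42% and 1.65% (ex14D), again lower in both ex14D libraries.

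EZH2 domains were sparse at members in every library. Of the 1771 members, 1498 (84.6%) had no domain in any EZH2 library, against 1304 of 6422 common peaks (20.3%) and 2372 of 2962 control-only peaks (80.1%). An overlap of 1 bp was enough, and common peaks were wider (median 4076.5 against 1744 bp for members and 1082 bp for control-only peaks). The part of width in these shares was not tested. Members over promoters had one in 22.5% and 39.6% (control) and 8.81% and 4.41% (ex14D). Common peaks had one in 67.3% and 79.1% (control) and 50.1% and 45.6% (ex14D). Where a member had no control H3K27me3 peak, EZH2 domains numbered 1 and 6 of 327 in the control and 2 and 0 in the ex14D libraries, and for the count of 0 the exact 95% interval reaches 1.12% (0.917% by a limit of 3 counts). The 7 members with a domain in all 4 EZH2 libraries all lay over a promoter. Their genes were Foxo3, a forkhead factor of stress responses, Lamb1, a laminin chain, Tfdp1, the dimer partner of E2F factors, and Efs, Ppic, Mdfic and Mir6236, and each of the 7 overlapped a peak in 1 control H3K27me3 library.

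**Figure D3:**
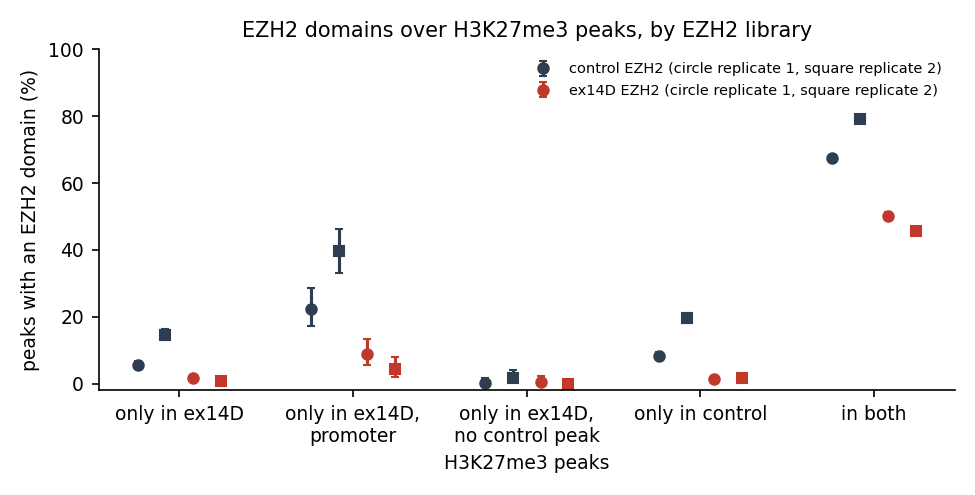
Percent of H3K27me3 peaks overlapped by an EZH2 domain in each EZH2 library (dark, control; red, ex14D; circle, replicate 1; square, replicate 2), with exact 95% binomial intervals, for 5 sets of peaks. In the first set, the ex14D-only peaks, the shares are 5.48% and 14.7% in control against 1.81% and 0.903% in ex14D. The common peaks at the right lie at 45.6% to 79.1%.

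Members lay over the promoters of 241 genes, 206 of them protein coding, which is 1.04% of the counted autosomal genes. None of these genes also had a common peak, but members and common peaks lay at least 1165 bp apart, so that no 1000 bp window could meet both. All 39 Hox genes and 84 of 89 lineage transcription factors had a common peak and therefore could not have a member. None of the 89 factors had one. No member lay over the promoters of 76 signalling genes, 90 receptor and channel genes, 64 adhesion and guidance genes, 28 genes of PRC2 and PRC1 subunits or 50 ribosomal protein genes. At 1.04% each of these lists would hold fewer than 1, so that a count of 0 does not set them apart. One of 21 pluripotency factors, Fgf4, had one. Of 44 germline and meiosis genes, 8 (18.2%) had a member over the promoter, 17 (38.6%) a common peak and 2 (4.55%) a control-only peak, beside 1.04%, 17.3% and 1.70% of all counted autosomal genes. The count is a description without a test. By single libraries, a peak lay over the promoter of 16 and 26 of the 44 genes in control replicates 1 and 2 and of 31 and 23 in ex14D, so that control replicate 2 had more than ex14D replicate 2. The share moved with the peak threshold, to 25% beside 6.37% of all genes at a −log10 q of at least 3 and to 20.5% beside 6.73% with the strongest peaks of each library.

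**Figure D4:**
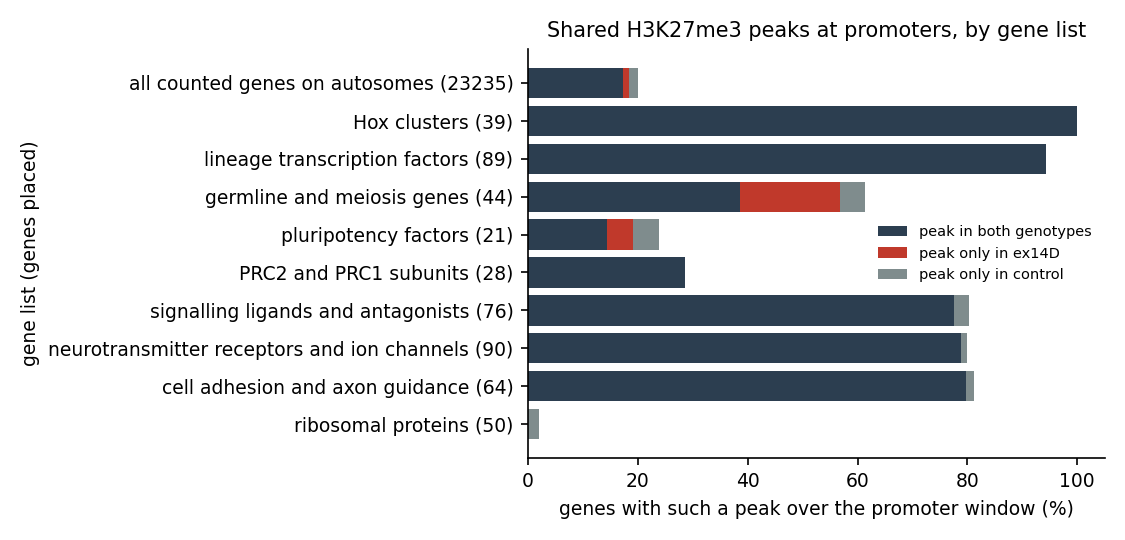
Percent of the genes of each list with a shared H3K27me3 peak over the 1 kb promoter window, split into common (dark), ex14D-only (red) and control-only peaks (grey); the number of genes placed on autosomes is in parentheses. The germline and meiosis list has the largest red share among these lists, 18.2% of 44 genes, against 1.04% of all genes in the top bar.

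The 8 germline genes act at different steps. Spo11 makes the double-strand breaks that begin meiotic recombination, Hormad1 and Syce1 belong to the chromosome axis and the synaptonemal complex, and Rec8 is the meiotic cohesin subunit. Piwil4 and Mov10l1 act in the piRNA pathway, Rnf17 is a Tudor domain protein of germ cells and Tex101 a surface protein of germ cells. The member at Spo11 was the widest of these, 4871 bp (chr2:172976859-172981729), followed by Syce1 with 3298 bp (chr7:140786033-140789330), Hormad1 with 3241 bp (chr3:95557827-95561067) and Mov10l1 with 2957 bp (chr15:88981196-88984152). Those at Tex101, Piwil4, Rec8 and Rnf17 were 1692, 1197, 783 and 483 bp wide. At Spo11 and Rec8 the ex14D replicate 2 peak overlapped the member outside the promoter window, so that the window itself was called in both ex14D libraries at the other 6. Only the members at Piwil4 and Rnf17 had no control peak, and the other 6 overlapped one in control replicate 2. None of the 8 overlapped an EZH2 domain in any library. It follows from these control peak calls that, of the 8, only Piwil4 and Rnf17 remained with control replicate 1 left out, and all 8 with control replicate 2 left out.

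Read counts in the promoter windows gave a second view of the same H3K27me3 libraries, as CPM (reads scaled to the library's total on genes) after TMM scaling. Such values compare shares of a library's reads and not the total amount of the mark in the cells. Spo11 had 34.9 and 46.1 CPM in control and 80.2 and 63.7 in ex14D. Hormad1 had 33.5 and 39.8 CPM in control and 87.3 and 59.9 in ex14D. Mov10l1 had 32.0 and 54.2 CPM in control and 96.8 and 77.0 in ex14D. At these 3 genes both ex14D libraries lay above both control libraries. Syce1 had 21.8 and 37.0 CPM in control and 61.1 and 53.2 in ex14D. Piwil4 had 20.4 and 27.1 CPM in control against 34.9 and 31.4 in ex14D, and Rnf17 had 14.5 and 26.2 against 31.0 and 45.6. The groups did not overlap at these genes either. Rec8 had 29.1 and 52.4 CPM in control against 45.2 and 36.1 in ex14D, and Tex101 had 34.9 and 75.9 against 48.4 and 48.5. At Rec8 and Tex101 the ex14D values fell between the control values. With libraries scaled by reads on genes alone, the groups stayed apart at Syce1, Hormad1 and Mov10l1 and overlapped at Spo11, Piwil4 and Rnf17.

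**Figure D5:**
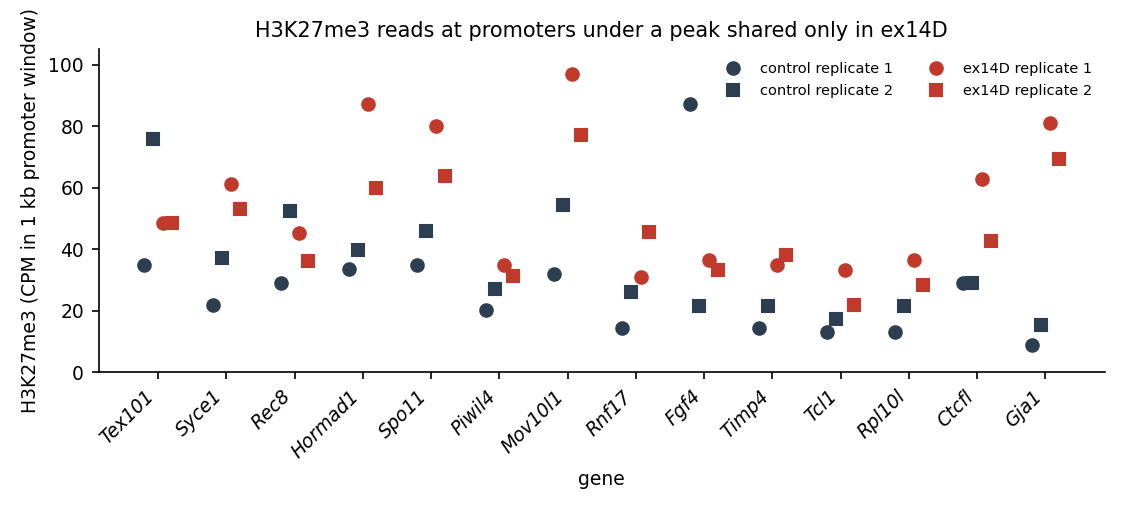
H3K27me3 reads in the 1 kb promoter window (CPM after TMM scaling) in each of the 4 libraries for the 8 germline genes and 6 other genes with a member over the promoter; dark symbols are control, red ex14D, circles replicate 1 and squares replicate 2. Gja1 at the right shows the widest gap, 8.73 and 15.4 against 81.0 and 69.4 CPM, while at Tex101 and Rec8 the groups overlap and at Fgf4 a control library is the highest.

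The germline list as a whole was described by the same reads. Both ex14D libraries exceeded both control libraries at 29 of 44 genes (65.9%) and were below both at 6, beside 26.3% and 17.9% of all 24500 promoter windows, and at 14 of the 17 list genes with a common peak, beside 42.8% of all genes with a common peak. The Hox clusters, none of which had a member, did so at 39 of 39 genes, with a median log2 difference of 1.58 against 0.67 for the germline list. With reads on genes as the only scaling the count was 16 of 44 (36.4%) beside 12.2% of all windows, and with all reads as library size 22 of 44 (50%) beside 20.8%. Dazl, an RNA-binding protein of germ cells whose promoter had a common peak, had 27.6 and 31.6 CPM in control and 90.5 and 93.1 in ex14D. Mei1, needed for meiotic breaks, had 268 and 281 CPM in control and 556 and 544 in ex14D. Dazl and Mei1 were named after their values were seen. At the promoters of Dazl and Mei1, both ex14D libraries held a larger scaled share of reads than both control libraries. The paper reports lower H3K27me3 in ex14D cells by Western blot, and less of it at Hoxa10 and Hoxd9 by ChIP-PCR. Higher CPM in ex14D, at the Hox clusters too, are therefore no measure of a gain of the mark per cell.

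Among all 241 member promoters the difference lay mainly against control replicate 1. The rule favors this, since it removed every peak that overlapped a shared peak of control replicate 1, so that the order of the libraries is no independent result. The median was 23.3 CPM in control replicate 1, 37.0 in control replicate 2, 43.7 in ex14D replicate 1 and 37.1 in ex14D replicate 2. The same medians over all windows were 9.94 to 11.4 CPM, and over genes with a common peak 100.4 to 117 CPM, so that member promoters lay between. Control replicate 1 was the lowest of the 4 libraries at 183 of 241 promoters, and control replicate 2 exceeded ex14D replicate 2 at 124. Both ex14D libraries exceeded both control libraries at 94 (39.0%), beside 26.3% of all windows and 42.8% of genes with a common peak. With reads on genes as the only scaling this held at 31 (12.9%) beside 12.2% of all windows, so that the share was near that of all windows, and with all reads as library size at 60 (24.9%) beside 20.8%. The median difference in log2(CPM + 1), ex14D minus control, was 0.42, and 0.02 without control replicate 1 and 0.77 without control replicate 2. Scaling by reads on genes alone moved the median of the tested promoters to -0.44 and that of the members to -0.01, a shift that such a scaling gives to every window. The gap between the 2 medians was 0.44 after TMM scaling, 0.43 with reads on genes alone and 0.075 without control replicate 1. With all reads as library size it was 0.26. There the CPM are much lower, so that the 1 added before taking logs weighs more and narrows the gap. For the 24 genes whose member had no control peak, the medians were 14.5 and 21.2 CPM in control and 33.3 and 27.6 in ex14D. The input libraries, scaled to their own reads on genes, had medians of 46.4 and 45.6 CPM over the 241 member promoters. Over these 24 genes their medians were 46.4 and 39.6 CPM. Rows that name no gene held 98.1% of the input reads against 92.4% to 94.4% of the H3K27me3 reads. The input CPM are therefore on another scale and cannot be set against the H3K27me3 CPM.

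Gja1, which encodes the gap junction protein connexin 43, stood apart among these promoters. Its member was the widest of all, 12393 bp (chr10:56370914-56383306) across the promoter, and neither control library had a peak there. Peaks of ex14D replicate 2 covered 48.1% of it, the largest single overlap being 4811 bp. In the promoter window it had 6 and 17 reads in control and 102 and 73 in ex14D, or 8.73 and 15.4 CPM against 81.0 and 69.4 CPM. The difference of 2.59 on the log2(CPM + 1) scale ranked 1st of 241. It was 2.16 with reads on genes alone and 1.64 with all reads as library size. In the last case the CPM are much lower, so that the added 1 shrinks the difference. The input libraries, on their own scale, had 36.6 and 36.0 CPM in the same window. No EZH2 domain overlapped the member in any library. The other 7 widest members were 8895 to 11524 bp wide and lay outside promoters, and 6 of them overlapped a peak in control replicate 2. Their nearest gene starts, of Krtap13-1, Trpc7, Pla2g2c, Gm10390, Mir582, Tnfrsf19 and Atf6, lay 999 bp (Krtap13-1) to 461325 bp (Trpc7) away.

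The members with no control peak lay over a promoter in 22 cases. Ranked by the lower of the 2 ex14D folds, Timp4, an inhibitor of metalloproteinases, came first, with folds of 24.5 and 27.5, and had 14.5 and 21.7 CPM in control and 34.9 and 38.0 in ex14D. Tcl1, a kinase coactivator expressed in ES cells, had folds of 11.8 and 29.6 and 13.1 and 17.2 CPM in control against 33.3 and 21.9 in ex14D. Tmem154, the third, had 29.1 and 22.6 CPM in control against 51.6 and 26.6 in ex14D, so that its groups overlapped. Lower in the order, Ctcfl, the testis paralog of CTCF, had 29.1 and 28.9 CPM in control and 62.7 and 42.8 in ex14D. Rpl10l, a testis retrogene of a ribosomal protein, had 13.1 and 21.7 CPM in control and 36.5 and 28.5 in ex14D. At Timp4, Tcl1, Ctcfl and Rpl10l both ex14D libraries exceeded both control libraries, and at Timp4 and Ctcfl they did so under all 3 scalings. The input libraries, on their own scale, had 39.1 and 55.2 CPM at Timp4. Mfsd9, 2610042L04Rik, Capn8 and 4833412C05Rik, with Rnf17, completed the 10 highest. Fgf4, the growth factor gene of ES cells, overlapped a peak in control replicate 1 only, with 87.3 and 21.7 CPM in control against 36.5 and 33.3 in ex14D, and an EZH2 domain lay over its member in both control libraries and in ex14D replicate 2.

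EZH2 counts on the genes under members could be compared for part of them. At 100 of the 241 genes every EZH2 library is listed at 0, and 140 passed the filter on low counts. The zeros lay in long stretches of chromosomes. For 95 of the 100 genes both neighboring genes were also at 0, 99.2% of the counted genes of chromosome 10 and 95.4% of chromosome 11 were at 0, and 886 EZH2 domains had been called on chromosome 10 in the 4 libraries. These zeros therefore give no level of EZH2, and Gja1, Mov10l1 and Rnf17 are among them. The EZH2 counts also follow gene length rather than a fixed window, so that they describe the gene and not the peak alone.

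Tested with edgeR (quasi-likelihood, p adjusted by Benjamini-Hochberg across 13401 genes), 5 of the 140 member genes (3.57%) were lower in ex14D and 0 higher, beside 7.88% and 0.0522% of all genes tested. At an unadjusted p under 0.05, 15 of the 140 were lower and 3 higher, beside 1692 and 452 of the 13401. The share of member genes called was below that of all genes in each of these counts, but the counts are small and the differences were not tested. At a share of 0.0522%, 0 higher calls among 140 genes do not set the members apart. Genes with a common peak were lower in 882 of 2400 cases (36.8%) and made up most of the 1056 lower calls. Genes with a control-only peak were lower in 8 of 214 cases (3.74%). Those with none of the 3 kinds of peak were lower in 142 of 10321 cases (1.38%), a smaller share than among member genes. At an unadjusted p under 0.05 in edgeR, 348 of these 10321 were lower and 407 higher. The median log2 fold change was -0.02 over the member genes, 0.02 over all genes and -0.20 over genes with a common peak. Over genes with none of the 3 kinds of peak it was 0.04. Scaled by library size only, the member median was 0.02. The gene 1700003E16Rik fell from 26.3 and 30.1 to 14.4 and 11.0 CPM (log2 fold change -1.17, SE 0.13, adjusted p = 0.00396, edgeR). Vsig8, an immunoglobulin domain protein, fell from 35.5 and 35.3 to 19.4 and 12.5 CPM (log2 fold change -1.17, SE 0.16, adjusted p = 0.00686, edgeR). The third, 3930402G23Rik, fell from 11.0 and 10.1 to 6.76 and 6.03 CPM (log2 fold change -0.72, SE 0.13, adjusted p = 0.0145, edgeR). Mir6236 and Phlda3 were the other 2. Without either control EZH2 library no member gene passed, without ex14D replicate 1 16 did, and with the replicate number as a block 3 did.

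Of the germline genes with a member, 6 could be tested for EZH2 and none passed in edgeR. Their log2 fold changes were -0.18 at Tex101, 0.01 at Syce1, -0.06 at Rec8, -0.04 at Hormad1, -0.06 at Spo11 and 0.05 at Piwil4, with adjusted p from 0.682 to 0.973. Hormad1 had 30.1 and 28.7 CPM in control and 30.0 and 27.2 in ex14D. Spo11 had 14.5 and 15.8 CPM in control and 13.8 and 15.3 in ex14D. The largest SE among these 6 was 0.17 on the log2 scale. An adjusted p that misses the threshold does not show that the values were equal.

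The letters CACGTG, an E-box that is palindromic and reads the same on both strands, occurred at least once in the 1000-base promoter window of 58 of 241 member genes (24.1%, interval 18.8% to 30.0%), 761 of 4019 genes with a common peak (18.9%) and 3989 of 23235 counted autosomal genes (17.2%). Among the 44 germline genes 19 windows (43.2%, interval 28.3% to 59.0%) held it, and among the 8 with a member the windows of Hormad1, Mov10l1 and Rnf17 did. In the 200 bases printed for Hormad1 it occurs 2 times. A match is a description of the letters and not of a bound site.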

How the data were processed

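ChIP-seq libraries of H3K27me3 and EZH2 (2 each for control and ex14D) and inputs (1 each) were grouped by the deposited labels. The authors aligned reads to mm10 with Bowtie (the labels name Trimmomatic, Bowtie2, MACS2, ChIPseeker and HTSeq, without versions), called H3K27me3 broad peaks with MACS2 and EZH2 domains with hiddenDomains in each library, and counted reads with htseq-count. The deposited peak files give a score, a fold enrichment (a ratio) and a −log10 p and −log10 q; the score was not used, and the control given to MACS2 and its cutoffs are not given in the sources used here. Counts were deposited as whole, unscaled reads per gene. H3K27me3 was counted by the authors in 1 kb windows at the start of genes, and the reads per gene that the authors deposited for EZH2 follow gene length. The hiddenDomains files of H3K27me3 were not used, because their coordinates run past the ends of mm10 chromosomes. Rows that name no gene held 92.4% to 98.1% of counted reads in the H3K27me3 and input libraries, 55.7% to 56.1% for EZH2, and were left out of library sizes unless stated.

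Peaks and domains were compared by overlap of at least 1 bp on chromosomes 1 to 19, and positions are 1-based on GRCm38. Of 24500 gene names, 24347 were placed with the RefSeq annotation, which also gave the sequences. The windows of 2 members are not reported here. EZH2 counts were compared with edgeR 4.0.16 in R 4.3.3 (TMM, filterByExpr, quasi-likelihood test, Benjamini-Hochberg adjustment, threshold 0.05). SEs are approximate, from the fold change and F. H3K27me3 CPM used a pseudocount of 1. Other steps used Python 3.11.15 with pysam 0.24.0, scipy 1.17.1 and pandas 2.3.3. The overlap code and edgeR fit were tested on simulated data. Intervals are exact 95% binomial ones and, like the limit for a count of 0 (3 counts), cover counting error only. p-values measure the spread between these libraries, which may be technical. No replicates agreed within sampling noise (chi-square over its degrees of freedom 1.49 to 4.01).

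Members, gene lists and tests were chosen with earlier results of these data known. Named members are the 8 highest folds, the 8 widest, the 10 with no control peak over a promoter and the highest lower fold, the edges of the rule, list genes with a member and, for EZH2, the 3 largest falls and rises past the threshold whose mean log2 CPM was 3 or more and whose direction held in each pair. No rise qualified. Alternatives covered the overlap, peak strength, base library, scaling, filter, test and each library left out. DESeq2 1.42.0 was one of them.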

Additional observations from a re-analysis of the deposited data

How the results depend on the processing

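The member count kept within 1.5 times of 1771 (control-only 2962) with an overlap of at least 50% of the shorter peak (1780; control-only 2808), with replicate 2 as base (1806; 2673), with the union of both libraries as shared regions (1647; 2928) and with peaks within 1 kb joined, which changed nothing since no peaks of a library lay that close. Requiring no peak at all in the other genotype gave 327 members and 1794 control-only peaks, and 2 germline genes in place of 8 (4.55% of the list beside 0.103% of all genes, against 18.2% beside 1.04%). A −log10 q of at least 3 gave 3340 and 1817, and the 9233 strongest peaks of each library gave 3409 and 1724, so that the order of the 2 counts turned, with 11 and 9 germline genes. Leaving out an H3K27me3 library gave 373 to 6504 members, 1876 to 11747 control-only peaks and 2 to 13 germline genes (chosen after seeing the data). These germline genes were 4.55% to 29.5% of the list, beside 0.133% to 2.50% of all genes. The lowest member count was without control replicate 1 and the highest without ex14D replicate 2.

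The difference in the share with an EZH2 domain, -8.72 percentage points, stayed negative in all 6 alternatives, from -0.765 (no control peak) to -13.3. The 5 member genes with lower EZH2 counts were 5 under RLE, library size only, no filter and DESeq2, 3 with the replicate block, 0 to 16 with a library left out (which leaves 1 library whose spread is taken from the others) and 119 of 828 with the nearest start in place of the promoter window. Deviations of same-numbered EZH2 libraries did not go together across genes (correlation -0.032), and the main fit took the samples as unpaired. So few libraries cannot exclude that same-numbered samples were handled together, and H3K27me3 was not looked at in this way. The median H3K27me3 difference at member promoters, 0.42, was -0.010 with library size only, 0.18 with all reads as library size and 0.02 to 0.77 with a library left out. With all reads as library size the CPM were lower, so that the pseudocount of 1 weighed more in that difference. At 594289 to 1450937 reads on genes, the promoter windows of the germline members held 10 to 122 reads, which limits the H3K27me3 values of single genes.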
